A study of Mus musculus with 7 samples.

Results

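The urea cycle and amino acid breakdown genes of the liver were examined in RNA-seq libraries from mice labelled as with or without hepatocyte deletion of *B4galt1*. The set held 46 genes of the 23347 in the table, chosen by name from 12 pathways, and all 46 were among the 15179 genes expressed highly enough to be tested. Expression was measured in bulk liver from 7 male mice, with 1 library per mouse. The 4 controls, labelled WT, were littermate *B4galt1* flox/flox mice without Cre, and the 3 others were labelled B4galt1-HKO. That label stands for *B4galt1* flox/flox mice carrying *Alb-Cre* (*B4galt1* hep-/-), in which the albumin promoter drives Cre recombinase in hepatocytes, but *B4galt1* itself went against it in 1 of the 3 libraries. All 7 mice had a C57BL/6 background and ate the CDAHFD for 15 weeks, starting from 6 to 8 weeks of age. This high-fat diet, without choline, low in methionine and with free amino acids in place of protein, induces steatohepatitis. The comparison asks how losing *B4galt1*, which encodes a Golgi galactosyltransferase, changes liver expression under this diet, and chow-fed mice were not analysed here.

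Amino acids that are not needed for protein are broken down mainly in the liver. Aminotransferases move their amino groups to glutamate, glutamate dehydrogenase releases ammonia, and the urea cycle, which starts in mitochondria and ends in the cytosol, turns ammonia into urea. Periportal hepatocytes carry most of the urea cycle and glutaminase, whereas a narrow rim of pericentral hepatocytes traps the remaining ammonia as glutamine through glutamine synthetase and also expresses ornithine aminotransferase. The carbon skeletons of several amino acids pass through biotin-dependent carboxylases in mitochondria before they reach the tricarboxylic acid cycle.

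Levels are given as CPM (counts scaled to library size by TMM normalization), which do not correct for gene length. A gene was called when edgeR's quasi-likelihood test gave a Benjamini-Hochberg adjusted p under 0.05 over all tested genes and the log2 fold change exceeded 0.58 in size. Log2 fold changes are those of livers labelled hep-/- over flox/flox livers. Total counts ranged from 37838654 to 39668509 in flox/flox libraries and from 30608271 to 34586588 in those labelled hep-/-. *B4galt1* itself was at 48.7, 53.0, 49.2 and 51.6 CPM in flox/flox libraries and at 28.4, 23.9 and 53.7 CPM in the libraries labelled hep-/- replicates 1 to 3. The third library labelled hep-/- was therefore no lower in *B4galt1* than the controls, and the gene's log2 fold change of −0.52 had an adjusted p of 0.181 by edgeR's quasi-likelihood test. Counts covered the whole gene and whole liver, so transcript from outside hepatocytes or from outside the deleted part could not be told apart from intact hepatocyte transcript. Mitochondrially encoded transcripts took 5.79 ± 1.70% of counts in flox/flox libraries (SD, n = 4) and 22.6, 22.1 and 14.4% in those labelled hep-/-. With these transcripts removed, 11 members were called, as with them. In bulk tissue, fewer cells of a type and less RNA per cell cannot be told apart.

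Of the 46 members, 10 fell and 1 rose in livers labelled hep-/-, and the other 35 did not pass the test. Without flox/flox replicate 2, or without replicate 2 labelled hep-/-, 6 were called lower and 0 higher. Over all tested genes, 15.8% were called, 7.83% lower and 8.0% higher, and among the 7706 genes at or above the lowest mean level of the members 12.0% were called lower and 9.06% higher. The 10 genes that fell were *Oat*, *Pccb*, *Glul*, *Pcca*, *Got2*, *Mccc1*, *Hgd*, *Aldh4a1*, *Mccc2* and *Hlcs*, and the gene that rose was *Bckdhb*. The median log2 fold change of the members was −0.29, beside 0.02 over all tested genes, and 32 of the 46 had a negative value. Every library labelled hep-/- lay below every flox/flox library for 13 members, which are 28.3% of them, and above for 3. Among all tested genes the corresponding shares were 15.0% and 13.6%. Members were also grouped by place of action, after the values were seen. Of 24 mitochondrial members 7 fell and 1 rose, and of 19 cytosolic members 2 fell. The median log2 fold changes were −0.29 and −0.24, and the difference was not tested. Of all calls 50.5% were higher here, and 51.9% and 52.8% with RLE and upper-quartile scaling. In limma's fit of log2(FPKM + 1), which changes the test, the filter and the scaling together, 24.5% were higher and the median of all genes shifted by −0.12 on the log2 scale. All 10 genes that fell remained negative and *Bckdhb* remained positive in every alternative tried.

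**Figure D1:**
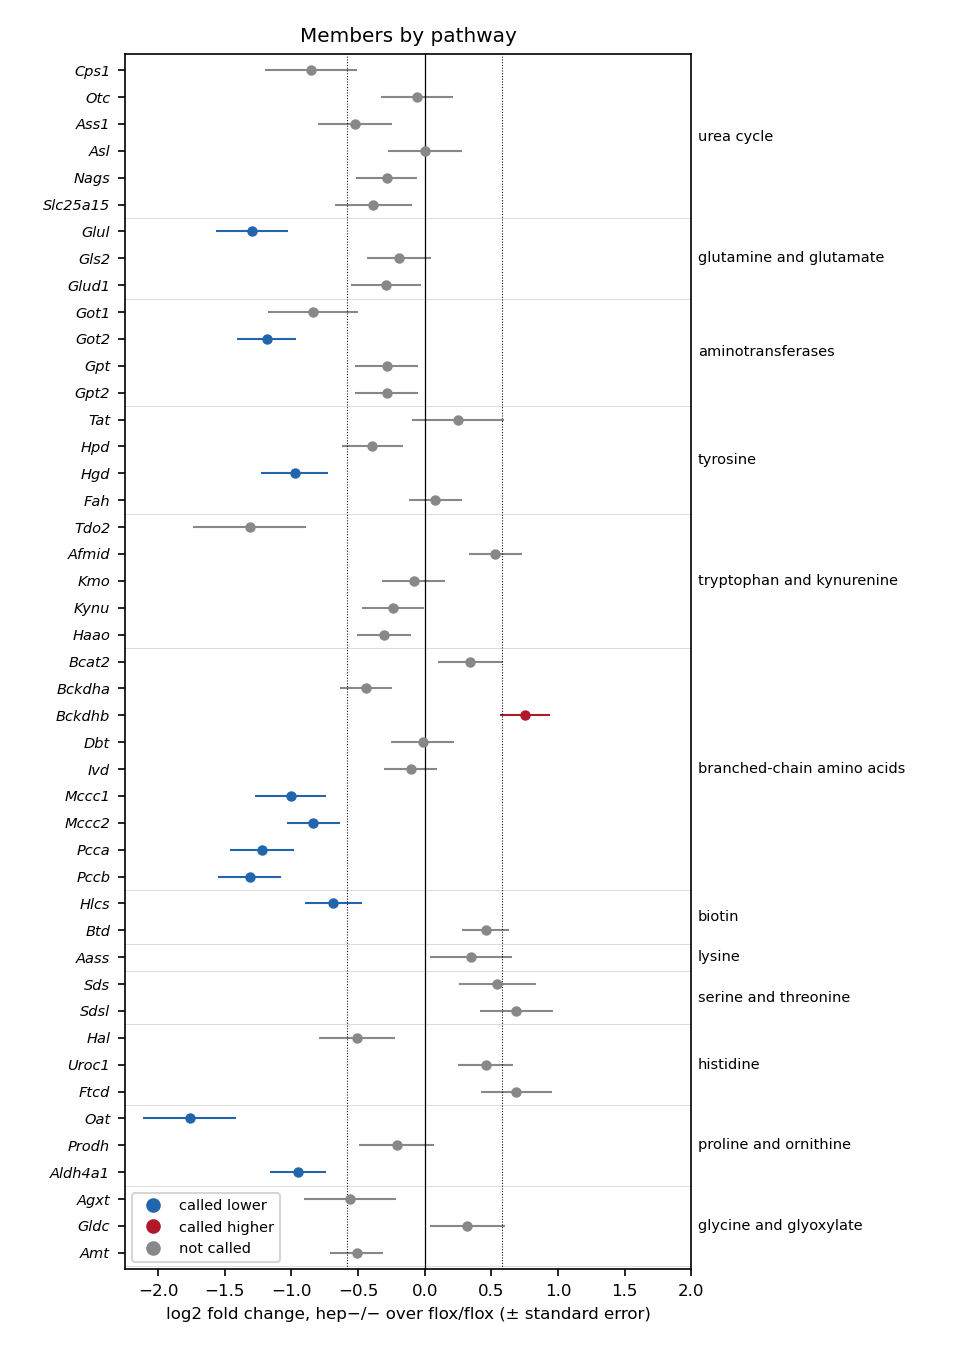
Log2 fold change of 45 members, livers labelled hep-/- over flox/flox livers, with its standard error as a bar, in pathway order; blue points were called lower, the red point higher and grey points were not called, and dotted lines mark a log2 fold change of 0.58 in either direction. The 10 blue points lie in the ornithine, glutamine, aminotransferase, tyrosine, branched-chain and biotin groups, and the urea cycle points are grey.

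The promoters of 6 genes that fell are shown because 4 of them encode the paired subunits of a pair of carboxylases and the other 2, *Glul* and *Oat*, mark pericentral hepatocytes. RefSeq promoter sequences of GRCm38.p6 were matched for 37 members by gene symbol, and the 9 with no matched entry included *Kynu*, *Gpt*, *Cps1*, *Gls2*, *Asl*, *Sds*, *Dbt* and *Sdsl*. The submitters' processing notes name GRCm39, so the coordinates are of the RefSeq table's own build. Each sequence holds the 250 bases before the annotated start, 5′ to 3′ on the gene's strand, and capitals mark CCAAT, its reverse complement ATTGG, or AGGTCA. The windows lie at chr14:122534078-122534327 (plus strand) for *Pcca*, chr9:101034885-101035134 (minus strand) for *Pccb*, chr3:36000679-36000928 (minus strand) for *Mccc1*, chr13:100015640-100015889 (minus strand) for *Mccc2*, chr1:153899679-153899928 (plus strand) for *Glul* and chr7:132576399-132576648 (minus strand) for *Oat*.
Pcca: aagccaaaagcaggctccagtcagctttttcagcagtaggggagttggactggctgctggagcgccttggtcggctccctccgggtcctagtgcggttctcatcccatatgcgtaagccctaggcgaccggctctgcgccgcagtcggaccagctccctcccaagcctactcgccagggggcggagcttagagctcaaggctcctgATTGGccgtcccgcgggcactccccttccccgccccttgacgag
Pccb: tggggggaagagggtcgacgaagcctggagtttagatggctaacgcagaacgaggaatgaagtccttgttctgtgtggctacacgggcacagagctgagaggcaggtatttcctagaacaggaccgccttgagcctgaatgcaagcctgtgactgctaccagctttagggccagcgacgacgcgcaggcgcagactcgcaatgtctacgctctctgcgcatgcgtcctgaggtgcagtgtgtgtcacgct
Mccc1: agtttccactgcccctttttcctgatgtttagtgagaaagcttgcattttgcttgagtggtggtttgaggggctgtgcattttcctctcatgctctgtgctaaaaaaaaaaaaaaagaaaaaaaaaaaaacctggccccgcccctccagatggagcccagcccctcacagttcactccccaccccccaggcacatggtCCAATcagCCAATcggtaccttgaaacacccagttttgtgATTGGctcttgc
Mccc2: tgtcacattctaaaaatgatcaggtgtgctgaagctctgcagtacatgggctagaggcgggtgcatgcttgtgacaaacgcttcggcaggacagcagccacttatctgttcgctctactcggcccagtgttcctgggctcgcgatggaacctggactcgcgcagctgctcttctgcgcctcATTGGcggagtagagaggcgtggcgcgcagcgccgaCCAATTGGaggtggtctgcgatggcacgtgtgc
Glul: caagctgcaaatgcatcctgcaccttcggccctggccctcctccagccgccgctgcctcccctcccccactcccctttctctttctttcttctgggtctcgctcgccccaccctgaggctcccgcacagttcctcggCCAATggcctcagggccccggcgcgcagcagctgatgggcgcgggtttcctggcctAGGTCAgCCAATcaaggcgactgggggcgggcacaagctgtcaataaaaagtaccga
Oat: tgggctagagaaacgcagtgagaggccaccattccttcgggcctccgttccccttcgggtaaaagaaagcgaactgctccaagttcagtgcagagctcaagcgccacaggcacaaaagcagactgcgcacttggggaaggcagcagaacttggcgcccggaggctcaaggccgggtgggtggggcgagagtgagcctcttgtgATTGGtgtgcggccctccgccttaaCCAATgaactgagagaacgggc

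*Mccc1* and *Mccc2*, the subunits of 1 enzyme, each held 3 CCAAT elements counting both strands, with first bases at −52, −44 and −12 in *Mccc1* and at −69, −33 and −30 in *Mccc2*, where −1 is the base before the start. In *Mccc2* the last pair overlap as CCAATTGG. *Pcca* held 1, at −44, whereas *Pccb*, its partner subunit, held none of the 5 motifs searched. *Glul* held CCAAT at −113 and −50 and AGGTCA, the element bound by many nuclear receptors, at −57, and *Oat* held CCAAT at −47 and −22. CCAAT, the element bound by the factor NF-Y, was found on either strand in 7 of the 10 members that fell, in 17 of the 37 matched members and in 34.5% of 27025 genes. AGGTCA was found in 3 of the 10, in 11 of the 37 and in 13.8% of genes. TATAAA was found in 2 of the 10, 5 of the 37 and 13.0% of genes. Neither TGACGT (1 of the 37 and 6.56% of genes) nor CTTTGA (8 of the 37 and 14.1% of genes) was in any of the 10 windows. The windows of the 10 had a median GC content of 59.6%, against 57.6% for the 37 matched members and 52.0% over all genes, and these matches are a description of letters only.

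None of the 7 urea cycle members passed edgeR's test. At an unadjusted p under 0.05, 1 of them was lower, while DESeq2 called 1 lower and limma on FPKM 2. *Cps1*, which makes carbamoyl phosphate from ammonia in the first committed step, was at 3550, 3162, 4059 and 3031 CPM in flox/flox livers and at 1513, 1054 and 3170 CPM in livers labelled hep-/-. Replicates 1 and 2 labelled hep-/- lay below every control, and replicate 3 lay within their range. Its log2 fold change was −0.85 with a standard error of 0.35 (edgeR quasi-likelihood test, adjusted p = 0.110). *Ass1*, which joins citrulline and aspartate, was at 2638, 2492, 2658 and 2988 CPM in flox/flox livers and at 1420, 1418 and 2779 CPM in livers labelled hep-/-, with a log2 fold change of −0.53 and a standard error of 0.28 (adjusted p = 0.212 by the same test). *Ass1* had the same layout as *Cps1*, with replicate 3 among the controls. Without replicate 3 labelled hep-/-, both genes passed the test, *Cps1* at a log2 fold change of −1.43 (adjusted p = 0.0106) and *Ass1* at −0.93 (adjusted p = 0.0236).

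*Asl*, which splits argininosuccinate, averaged 784 ± 240 CPM in flox/flox livers (SD, n = 4) and 785 ± 211 CPM in livers labelled hep-/- (SD, n = 3). Its libraries read 805, 548, 676 and 1107 CPM and then 599, 742 and 1015 CPM, and its fitted log2 fold change of 0.00 with a standard error of 0.28 (edgeR adjusted p = 0.995) was −0.11 in FPKM. The *Asl* values of the groups were fully interleaved. *Otc*, which forms citrulline in mitochondria, was at 268, 368, 328 and 527 CPM and then at 440, 251 and 384 CPM in livers labelled hep-/-, a log2 fold change of −0.06 with a standard error of 0.27 (edgeR adjusted p = 0.904). *Otc* also overlapped between groups, and its highest library was a control.

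*Nags*, which makes the activator of carbamoyl phosphate synthetase, was at 52.0, 51.3, 37.1 and 54.3 CPM in flox/flox livers and at 36.0, 29.7 and 54.0 CPM in livers labelled hep-/-, a log2 fold change of −0.29 with a standard error of 0.23 (edgeR adjusted p = 0.416). *Slc25a15*, the mitochondrial ornithine carrier, was at 306, 368, 438 and 364 CPM and then at 255, 168 and 425 CPM in livers labelled hep-/-, a log2 fold change of −0.38 with a standard error of 0.29 (edgeR adjusted p = 0.379). As for *Cps1*, the first 2 libraries labelled hep-/- lay below every control for both genes and replicate 3 did not. Without replicate 3 the log2 fold changes were −0.57 for *Nags* (edgeR adjusted p = 0.107) and −0.81 for *Slc25a15* (edgeR adjusted p = 0.0575). On the length-corrected FPKM scale the mean control level ran from *Ass1* (1714) and *Cps1* (640) through *Asl* (342), *Slc25a15* (102) and *Otc* (90.4) to *Nags* (23.9).

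**Figure D2:**
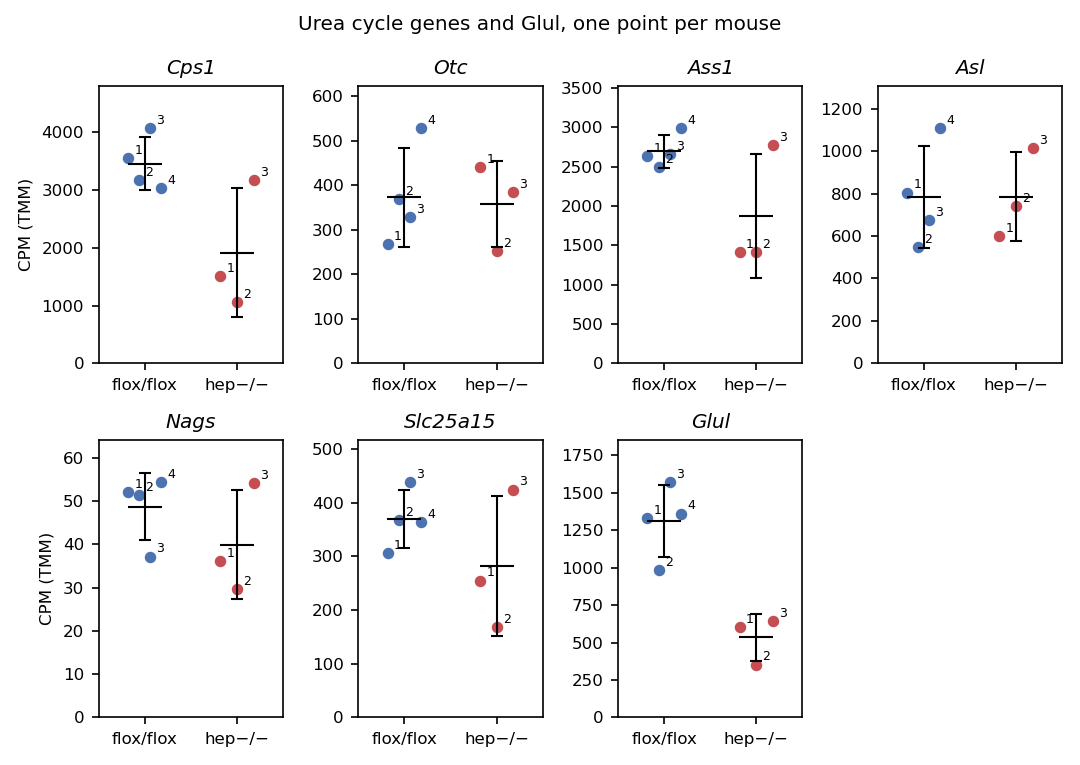
TMM-normalized CPM of 6 urea cycle genes and *Glul*, 1 point per mouse numbered by replicate, with the mean and SD in black (n = 4 flox/flox, n = 3 labelled hep-/-), each panel on its own axis from 0. Replicate 3 labelled hep-/- sits among the controls for *Cps1*, *Ass1*, *Nags* and *Slc25a15*, while all 3 *Glul* points labelled hep-/- lie under every control.

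Glutamine synthetase and ornithine aminotransferase, the pericentral enzymes of the set, both fell. *Glul*, which traps ammonia as glutamine, was at 1332, 986, 1570 and 1361 CPM in flox/flox livers and at 604, 353 and 644 CPM in livers labelled hep-/-. The means were 1312 ± 242 CPM (SD, n = 4) and 534 ± 158 CPM (SD, n = 3), a log2 fold change of −1.30 with a standard error of 0.27 (edgeR adjusted p = 0.0115). The groups did not overlap, and the highest library labelled hep-/- lay well under the lowest control. *Oat*, which converts ornithine to glutamate semialdehyde, was at 794, 470, 692 and 814 CPM in flox/flox livers and at 175, 113 and 323 CPM in livers labelled hep-/-. It had the largest fall of the set. Its mean was 692 ± 158 CPM in controls (SD, n = 4) and 204 ± 108 CPM in livers labelled hep-/- (SD, n = 3), a log2 fold change of −1.76 with a standard error of 0.35 (edgeR adjusted p = 0.00943). Again no library labelled hep-/- reached a control. *Gls2*, the liver glutaminase of periportal cells (log2 fold change −0.19, adjusted p = 0.613), and *Glud1*, glutamate dehydrogenase (−0.29, adjusted p = 0.470), did not pass the same test. The FPKM ratio of *Glul* to *Gls2* was 3.95 ± 1.22 in flox/flox livers (SD, n = 4) and 1.78 ± 0.541 in livers labelled hep-/- (SD, n = 3).

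Lists of zonation genes, written from general knowledge but with earlier results of these data known, were read beside these members. Of 12 pericentral genes 6 were called lower, 0 higher, and 10 lay lower without overlap between groups. Their median log2 fold change was −1.09. *Axin2* and *Tbx3* of this list overlapped between groups, at log2 fold changes of 0.04 and 0.52 (edgeR adjusted p = 0.942 and 0.378). Over all tested genes, 7.83% were called lower and 15.0% lay lower without overlap. Without *Glul* and *Oat*, 4 of the remaining 10 pericentral genes were called lower, with a median of −0.93. Of 12 periportal genes, 1 was called lower and 0 higher, with a median of −0.33, and the 6 that are not members had the same median. At an unadjusted p under 0.05, 10 pericentral and 3 periportal genes were lower and 0 higher. DESeq2 called 9 and 2 lower, beside 1559 of all 15179 tested genes. Limma on log2(FPKM + 1) called 9 and 4 lower, beside 1733 of 10914. The called pericentral genes outside the set included *Rhbg*, an ammonium transporter, *Slc1a2*, a glutamate transporter, *Cyp2e1*, a cytochrome P450, and *Gulo*, which in mice completes vitamin C synthesis. *Cyp2e1* was at 8848, 9314, 9868 and 9198 CPM in flox/flox livers and at 3584, 2417 and 5215 CPM in livers labelled hep-/- (edgeR adjusted p = 0.0145). The difference between the lists was not tested.

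**Figure D3:**
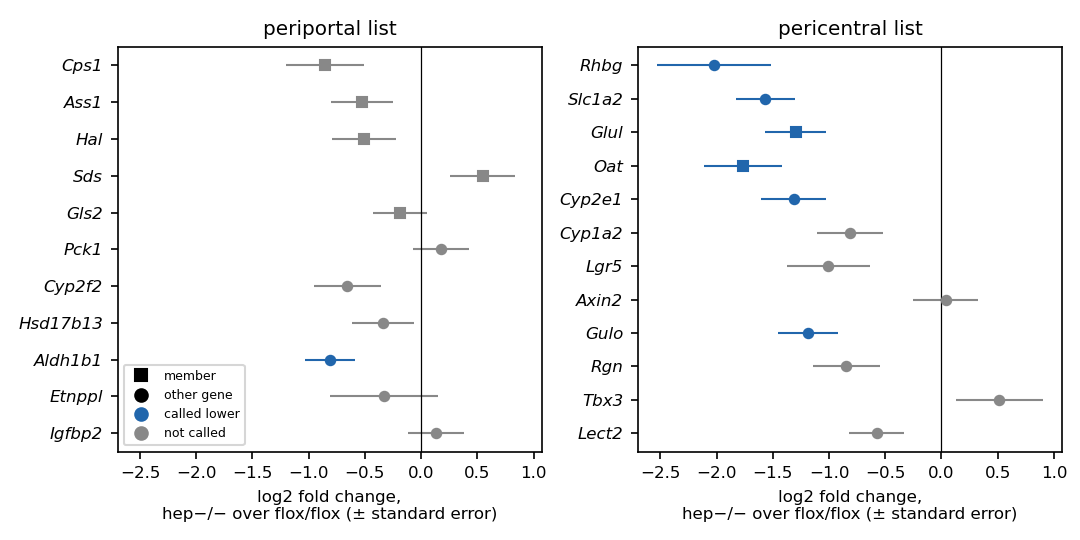
Log2 fold changes with standard errors of 11 periportal (left) and 12 pericentral genes (right), livers labelled hep-/- over flox/flox livers; squares are members of the amino acid set, circles other genes, blue called lower and grey not called. In the pericentral list 6 points are blue, *Glul* and *Oat* among them, and in the periportal list 1, *Aldh1b1*.

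The rest of the proline and ornithine group held 1 more gene that fell. *Aldh4a1*, which oxidises glutamate semialdehyde, the product of *Oat*, to glutamate in mitochondria, was at 296, 317, 348 and 282 CPM in flox/flox livers and at 148, 131 and 203 CPM in livers labelled hep-/-. The groups did not overlap, and the log2 fold change was −0.95 with a standard error of 0.21 (edgeR adjusted p = 0.0149). *Prodh*, which starts proline breakdown, overlapped between groups (log2 fold change −0.21, adjusted p = 0.636).

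Among the 4 aminotransferases, the mitochondrial aspartate enzyme *Got2* was the one that fell. It was at 517, 593, 509 and 528 CPM in flox/flox livers and at 220, 187 and 301 CPM in livers labelled hep-/-, a log2 fold change of −1.19 with a standard error of 0.22 (edgeR adjusted p = 0.00780). Its controls were tight and every library labelled hep-/- was far below them. *Got1*, the cytosolic aspartate enzyme, was at 678, 553, 483 and 763 CPM in flox/flox livers and at 232, 229 and 578 CPM in livers labelled hep-/-, a log2 fold change of −0.84 (edgeR adjusted p = 0.106). Here replicate 3 labelled hep-/- lay among the controls, and without it the log2 fold change was −1.44 (adjusted p = 0.00965). The alanine aminotransferases *Gpt* and *Gpt2* overlapped between groups, each at −0.29 (adjusted p = 0.421 for both).

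In tyrosine breakdown, *Hgd*, the homogentisate dioxygenase of the third step, fell from 484, 470, 415 and 540 CPM in flox/flox livers to 212, 175 and 340 CPM in livers labelled hep-/-. The groups did not overlap, and the log2 fold change was −0.98 with a standard error of 0.25 (edgeR adjusted p = 0.0254). The call for *Hgd* was lost without flox/flox replicate 2 (adjusted p = 0.0638) or 4 (0.0571) and without replicate 1 (0.0694) or 2 labelled hep-/- (0.0631), with log2 fold changes between −0.99 and −0.79. With replicate number as a block in edgeR the *Hgd* call was lost too (adjusted p = 0.0785). Enzymes on either side of it did not pass: *Tat*, the aminotransferase of the first step, had a log2 fold change of 0.25, *Hpd*, of the next step, −0.39 and *Fah*, the last enzyme, 0.08, which was −0.05 in FPKM, and their adjusted p ran from 0.253 to 0.812.

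None of the 5 genes of tryptophan and kynurenine breakdown passed edgeR's test. At an unadjusted p under 0.05, 1 was lower and 1 higher, while DESeq2 and limma on FPKM each called 1 lower. *Tdo2*, the dioxygenase that opens the tryptophan ring, was at 1123, 1331, 2294 and 1335 CPM in flox/flox livers and at 415, 304 and 1116 CPM in livers labelled hep-/-. All 3 libraries labelled hep-/- lay under the lowest control, although replicate 3 did so narrowly. Its log2 fold change of −1.31 was among the largest of the set, but its standard error was 0.43 (edgeR adjusted p = 0.0566), and without replicate 3 labelled hep-/- it was −2.09 (adjusted p = 0.00752). It passed in 8 of the 18 alternatives tried. *Afmid*, the next enzyme, was at 64.8, 45.5, 63.9 and 69.8 CPM in flox/flox livers and at 79.0, 84.8 and 101 CPM in livers labelled hep-/-. These groups did not overlap either, in the opposite direction (log2 fold change 0.53, adjusted p = 0.0860). *Kmo*, *Kynu* and *Haao*, which act further along the pathway, had log2 fold changes between −0.31 and −0.08.

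The 4 subunits of the biotin-dependent carboxylases in the set all fell. Propionyl-CoA carboxylase handles the propionyl-CoA from isoleucine, valine, methionine and threonine, and methylcrotonyl-CoA carboxylase acts in leucine breakdown. *Pcca*, the biotin-carrying subunit of the first enzyme, was at 49.5, 57.6, 62.7 and 53.7 CPM in flox/flox livers and at 23.9, 15.6 and 32.5 CPM in livers labelled hep-/-. *Pccb*, its partner, was at 113, 137, 168 and 133 CPM in flox/flox livers and at 58.8, 39.1 and 68.3 CPM in livers labelled hep-/-. Neither gene overlapped between groups, and the log2 fold changes were −1.22 with a standard error of 0.24 for *Pcca* (edgeR adjusted p = 0.00939) and −1.31 with a standard error of 0.24 for *Pccb* (edgeR adjusted p = 0.00691). The FPKM ratio of *Pcca* to *Pccb* was 0.326 ± 0.0228 in flox/flox livers (SD, n = 4) and 0.340 ± 0.0334 in livers labelled hep-/- (SD, n = 3). The means of this ratio differed by less than the SD of either group. *Pcca* shares 241 exonic bases with *Ggact* on the opposite strand, whose counts were 108% of those of *Pcca* and which was itself called lower (log2 fold change −0.59, edgeR adjusted p = 0.0495), and the strand setting of the counting is not given in the sources used here. In all, 10 members share exonic bases with a gene on the opposite strand. The partner's counts exceeded the member's for *Pcca*, for *Btd* (*Hacl1*, 169%) and for *Bcat2* (*0610005C13Rik*, 485%), and were at most 28.7% of the member's for the others.

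*Mccc1*, the biotin-carrying subunit of methylcrotonyl-CoA carboxylase, was at 37.8, 36.9, 42.8 and 37.9 CPM in flox/flox livers and at 16.4, 12.2 and 29.5 CPM in livers labelled hep-/-. *Mccc2*, its partner, was at 37.3, 43.4, 46.2 and 44.3 CPM in flox/flox livers and at 24.3, 18.2 and 29.5 CPM in livers labelled hep-/-. The groups did not overlap for either gene, and the log2 fold changes were −1.0 with a standard error of 0.27 for *Mccc1* (edgeR adjusted p = 0.0286) and −0.84 with a standard error of 0.20 for *Mccc2* (edgeR adjusted p = 0.0198). Both calls were lost without flox/flox replicate 2 (adjusted p = 0.0638 for *Mccc1* and 0.0570 for *Mccc2*) and without replicate 2 labelled hep-/- (0.0734 and 0.0573). With replicate number as a block in edgeR the call of *Mccc2* was lost (adjusted p = 0.0663). That of *Mccc1* was also lost without flox/flox replicate 3 (0.0624) or 4 (0.0535) and without replicate 1 labelled hep-/- (0.0734), at log2 fold changes of −0.96, −1.02 and −0.92. The FPKM ratio of *Mccc1* to *Mccc2* was 0.647 ± 0.0553 in flox/flox livers (SD, n = 4). It was 0.480, 0.476 and 0.708 in livers labelled hep-/-, with replicates 1 and 2 below every control and replicate 3 within their range.

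The 2 members that act on biotin itself differed in sign. *Hlcs*, the ligase that attaches biotin to the carboxylases, was at 15.2, 16.3, 12.0 and 14.4 CPM in flox/flox livers and at 10.6, 7.21 and 9.21 CPM in livers labelled hep-/-. These groups did not overlap, but the log2 fold change of −0.69 with a standard error of 0.21 was called by a narrow margin (edgeR adjusted p = 0.0495), and leaving out any single library except flox/flox replicate 3 lost the call, with adjusted p from 0.0537 to 0.152 and log2 fold changes from −0.83 to −0.55. *Btd*, which recycles biotin from degraded enzymes, was at 49.1, 48.3, 40.9 and 50.8 CPM in flox/flox livers and at 71.6, 54.9 and 68.2 CPM in livers labelled hep-/-, a log2 fold change of 0.46 (adjusted p = 0.0965). Its groups did not overlap, in the direction opposite to *Hlcs*, and it shares 108 exonic bases with *Hacl1* on the other strand. *Pcx*, pyruvate carboxylase, is a biotin enzyme outside the set, and it fell from 504, 549, 580 and 451 CPM to 220, 167 and 309 CPM in livers labelled hep-/- (log2 fold change −1.17, edgeR adjusted p = 0.0111).

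*Bckdhb*, a subunit of the E1 component of the branched-chain ketoacid dehydrogenase that commits leucine, isoleucine and valine to breakdown, was the 1 member that rose. It was at 100, 101, 92.8 and 121 CPM in flox/flox livers and at 148, 195 and 181 CPM in livers labelled hep-/-, with means of 104 ± 12.0 CPM (SD, n = 4) and 175 ± 23.9 CPM (SD, n = 3). The groups did not overlap, and the log2 fold change was 0.75 with a standard error of 0.19 (edgeR adjusted p = 0.0228). Its call was lost without flox/flox replicate 2 (log2 fold change 0.74, adjusted p = 0.0775) or 3 (0.70, adjusted p = 0.0597) and without replicate 2 labelled hep-/- (0.67, adjusted p = 0.0552), as well as in limma's unfiltered fit of log2(FPKM + 1) (adjusted p = 0.0646). With replicate number as a block in edgeR it was lost too (adjusted p = 0.0828). *Bckdha*, the other E1 subunit, was at 258, 234, 221 and 270 CPM in flox/flox livers and at 187, 152 and 205 CPM in livers labelled hep-/-, a log2 fold change of −0.44 (adjusted p = 0.135). The E1 subunits thus separated between groups in opposite directions. Their FPKM ratio, *Bckdha* to *Bckdhb*, was 2.14, 1.92, 1.97 and 1.85 in flox/flox livers and 1.04, 0.648 and 0.936 in livers labelled hep-/-, with no overlap. *Dbt*, the E2 component, had a log2 fold change of −0.01 that was 0.022 with upper-quartile scaling, *Ivd*, of leucine breakdown, −0.11 and *Bcat2*, the mitochondrial branched-chain aminotransferase, 0.34, with overlapping groups and adjusted p from 0.354 to 0.978. *Bcat2* shares 622 exonic bases with *0610005C13Rik* on the other strand, whose log2 fold change was −0.44.

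**Figure D4:**
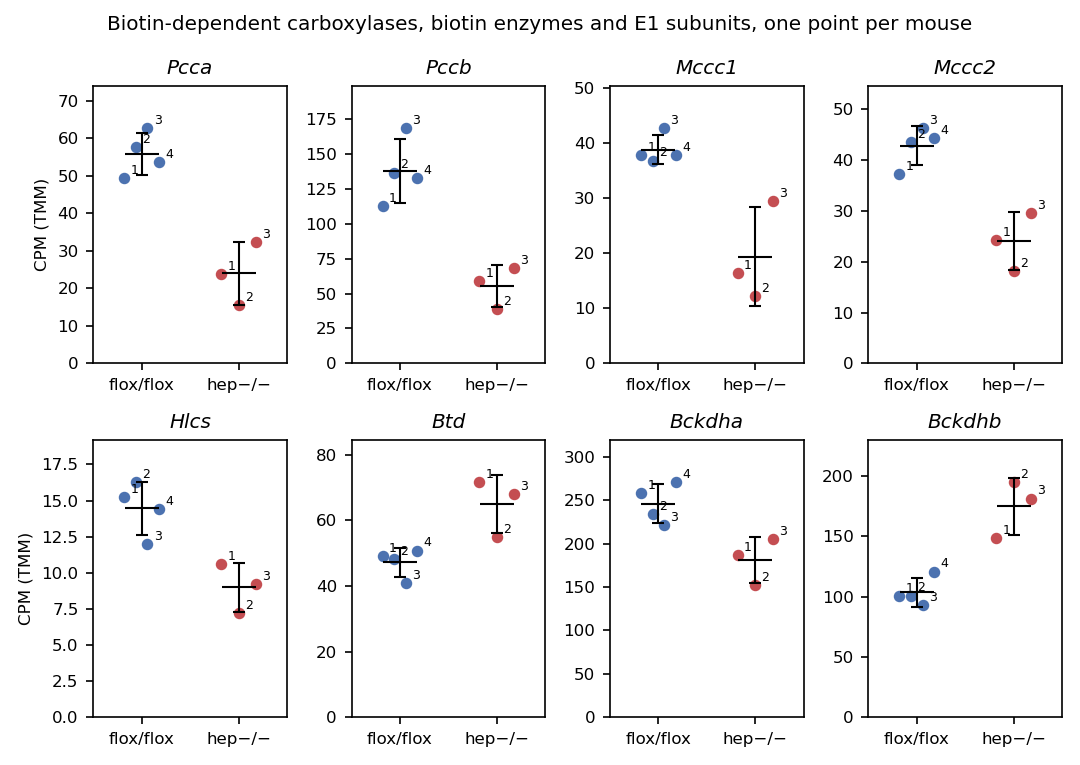
TMM-normalized CPM of the 4 carboxylase subunits, the biotin enzymes *Hlcs* and *Btd*, and the E1 subunits *Bckdha* and *Bckdhb*, 1 point per mouse numbered by replicate, with the mean and SD in black (n = 4 flox/flox, n = 3 labelled hep-/-), each panel on its own axis from 0. The groups do not overlap in any of the 8 panels, being lower in livers labelled hep-/- for the carboxylase subunits, *Hlcs* and *Bckdha* and higher for *Btd* and *Bckdhb*.

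The lysine, serine, threonine, histidine and glycine genes held no member that passed edgeR's test. At an unadjusted p under 0.05, 1 of the 9 was lower and 3 higher, while DESeq2 called 1 higher and limma called 0 on log2(FPKM + 1) and 1 lower on log2(FPKM + 0.1). *Aass*, which starts lysine breakdown, had a log2 fold change of 0.35 but reached 859 CPM in replicate 3 labelled hep-/-, against 438 and 304 CPM in replicates 1 and 2 and 373 to 472 CPM in controls. Without replicate 3 its value was −0.19. The serine dehydratase *Sds* and its relative *Sdsl* had log2 fold changes of 0.55 and 0.69 (adjusted p = 0.213 and 0.107), and *Sdsl* passed at 0.99 without flox/flox replicate 4 (adjusted p = 0.0284). In histidine breakdown, *Hal*, the first enzyme, had a log2 fold change of −0.51, whereas *Uroc1* and *Ftcd*, which follow it, had 0.46 and 0.69 (adjusted p from 0.0976 to 0.237). *Amt*, of the glycine cleavage system, was at 31.2, 37.3, 26.4 and 42.8 CPM in flox/flox livers and at 25.0, 24.8 and 22.6 CPM in livers labelled hep-/-. The *Amt* groups did not overlap (log2 fold change −0.51, adjusted p = 0.0976), while *Gldc*, of the same system, had 0.32 and *Agxt*, which handles glyoxylate, −0.56, both with overlapping groups. *Gldc* was at 48.5, 58.8 and 123 CPM in livers labelled hep-/-, and without replicate 3 its value was −0.21.

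The libraries labelled hep-/- were unequal across the set. The median log2 ratio of the 46 members to the flox/flox mean was −0.44 and −0.60 in replicates 1 and 2 and 0.05 in replicate 3. Over all tested genes these medians lay between −0.034 and −0.019. Replicate 1 had 28 of the 46 members below every control and 4 above, beside 28.8% and 28.6% of all tested genes. Replicate 2 had 32 below and 8 above, beside 35.4% and 35.5%. Replicate 3 had 13 below and 15 above, beside 28.2% and 28.0%, so its members lay outside the control range about as often as genes in general. It had the highest CPM of the 3 libraries labelled hep-/- for 39 of 46 members, beside 33.1% of all tested genes. Among genes called lower, it was the highest for 9 of the 10 members and for 62.1% of all such genes. Replicate 3 is also the library in which *B4galt1* was at the control level and the mitochondrially encoded share was lowest of the 3, and the part of either in these values was not tested. Without it, 14 members were called, the median log2 fold change was −0.53 and 10 of the 11 calls remained, all but that of *Hlcs*. Members took 2.65, 2.30, 2.83 and 2.54% of all counts in flox/flox libraries and 1.56, 1.64 and 2.35% in those labelled hep-/-.

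**Figure D5:**
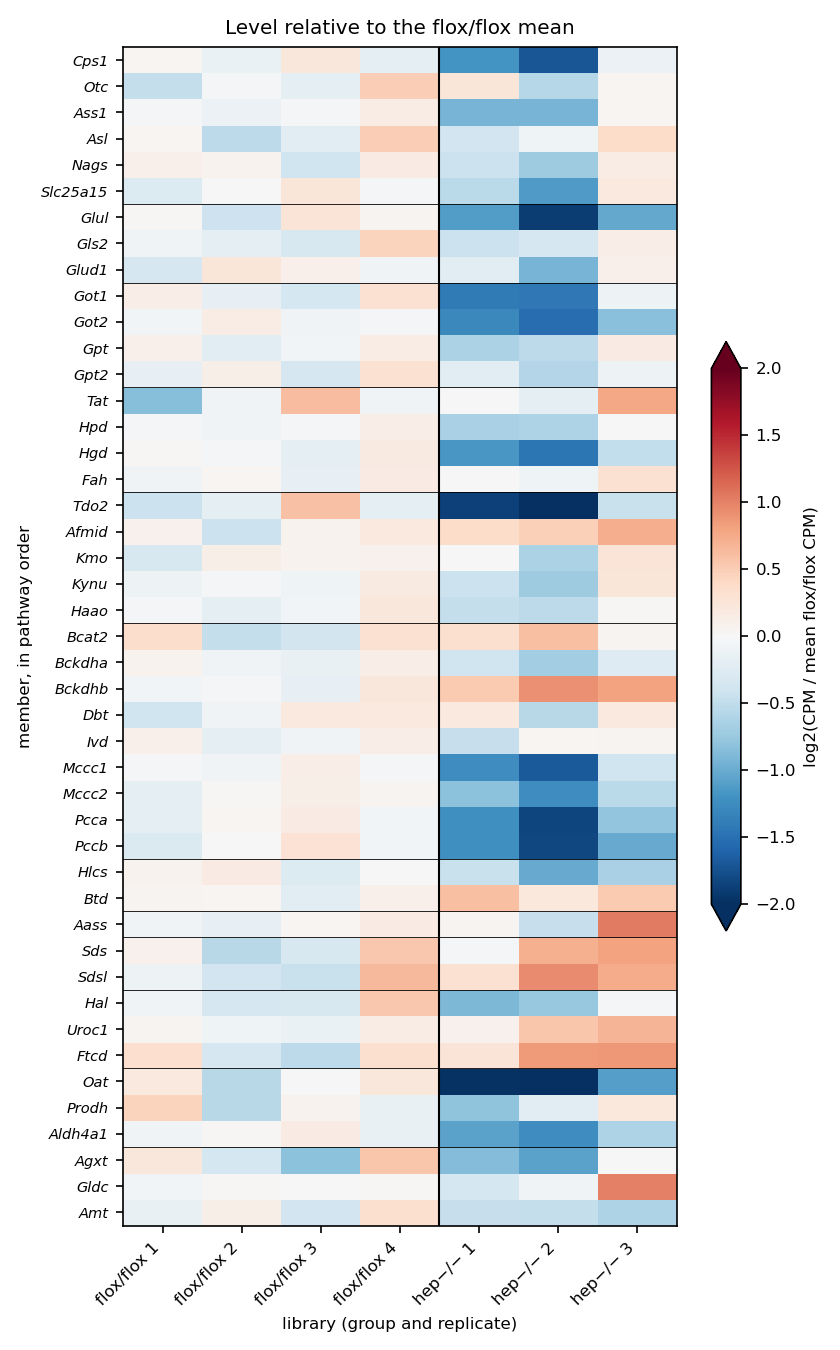
Log2 ratio of the CPM of 45 members to their flox/flox means in each of the 7 libraries, in pathway order, with blue below and red above the control mean and the colour scale ending at 2 in either direction. The columns of replicates 1 and 2 labelled hep-/- are mostly blue (35 and 36 of 45 members under the control mean), and that of replicate 3 is mixed (18 of 45).

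Other genes of the same pathways were read in the same fit, from a list of 82 written from general knowledge with earlier results known. *Rhbg* and *Slc1a2* are in this list and in the pericentral list. Of the 77 that could be tested, 20 were called lower and 2 higher, and the median log2 fold change was −0.35. Among all tested genes, 7.83% were called lower and 8.0% higher. The 22 calls became 10 without flox/flox replicate 2 and 12 without replicate 1 labelled hep-/-. They became 14 without flox/flox replicate 3, without replicate 2 labelled hep-/- or with replicate number as a block. DESeq2 called 28 of these genes, and limma on log2(FPKM + 1) called 31. In the group around the urea cycle and ammonia, 7 of 11 tested genes fell by edgeR, beside 7.83% of all tested genes. DESeq2 also called 7 lower, and 1559 of all 15179 tested genes. The difference from the members of the cycle itself was not tested. Among the largest falls of the 77 were those of *Rhbg* (log2 fold change −2.02, edgeR adjusted p = 0.0230), *Asns*, asparagine synthetase (−1.71, adjusted p = 0.00219), *Car5a*, the mitochondrial carbonic anhydrase that supplies bicarbonate to the urea cycle (−1.66, adjusted p = 0.00283), and *Qprt*, which leads from kynurenine products to NAD (−1.63, adjusted p = 0.00656). None of these 4 overlapped between groups. Of 9 genes listed as amino acid transporters 2 fell, *Slc1a2* and *Slc7a2*, the second being a carrier of arginine. The carriers *Slc25a13* (−0.98, adjusted p = 0.0254), *Slc25a12* (−0.84, 0.0167) and *Slc38a3* (−0.74, 0.0453), of the ammonia group, also fell by edgeR. The 2 that rose were both transcription factors of a list of 11 regulators, *Atf4*, of the amino acid stress response (0.94, adjusted p = 0.0321), and *Cebpb* (0.94, adjusted p = 0.0184). *Asns*, a known target of *Atf4*, was at 30.6, 29.9, 20.6 and 26.2 CPM in flox/flox livers and at 7.34, 8.72 and 8.62 CPM in livers labelled hep-/-.

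Marker lists were read beside these results. Of 10 tested hepatocyte markers, 0 were called lower and 1 higher, the median log2 fold change was 0.13, and summed CPM ran from 103925 to 148480 in flox/flox libraries and from 112249 to 179749 in those labelled hep-/-. At an unadjusted p under 0.05, 0 of them were lower and 3 higher by edgeR, while DESeq2 called 0 lower and 3 higher and limma on FPKM 2 lower and 1 higher. Of 8 macrophage markers 5 were called lower (*Adgre1*, *Cd68*, *Lyz2*, *Trem2* and *Gpnmb*), and their summed CPM ran from 1413 to 3279 and from 613 to 720. Of 8 stellate cell and fibroblast markers 1 was called lower, of 6 endothelial markers 1, and of 6 cholangiocyte and 7 lymphocyte and neutrophil markers 0, also at an unadjusted p under 0.05, by DESeq2 and by limma on FPKM. No marker of the hepatocyte or macrophage lists that was tested was at 0 in every library of a group. Of 4 nuclear retained RNAs, which can mark RNA quality or composition, *Kcnq1ot1* was called higher (log2 fold change 1.66, edgeR adjusted p = 0.0424). *Malat1*, *Neat1* and *Meg3* had log2 fold changes of 0.67, 0.75 and −0.74 with adjusted p from 0.279 to 0.427, and the summed CPM of the 4 ran from 390 to 2215 in flox/flox libraries and from 1455 to 2706 in those labelled hep-/-. The part of these shifts in the members' values was not tested.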

How the data were processed

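Bulk liver RNA of 7 mice was sequenced, 1 library per mouse, and groups and replicate numbers came from the sample labels. The authors deposited raw counts per gene and FPKM values for the same libraries. Per the submitters' processing notes, fastp, HISAT2, HTSeq, DESeq2 and GRCm39 were used, and the annotation and strand setting are not given in the sources used here. FPKM equalled counts over a fixed gene length and the library total within 1% for all 13374 genes that reached 10 counts in all libraries. Genes were kept by filterByExpr (minimum count 10, minimum total 15), and after TMM scaling the quasi-likelihood test of edgeR 4.0.16 (R 4.3.3) compared the groups without covariates. Calls needed a Benjamini-Hochberg adjusted p under 0.05 and a log2 fold change beyond 0.58 in either direction. Standard errors were derived from the F statistic. DESeq2 1.42.0 on counts and limma 3.58.1 on log2(FPKM + 1) or log2(FPKM + 0.1) were alternatives, as were other normalizations, other filters, a replicate block and each library left out. In CPM, 3 counts were worth 0.0756 to 0.0980, and the lowest level of any member in any library was 7.21.

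On simulated counts for this comparison (14939 genes tested, with 97 changed by a log2 fold change of 1 and 99 by 2), edgeR recovered 38.1% of the first and 81.8% of the second, with 4 false among 122 calls, and DESeq2 recovered 54.6% and 85.9%, with 18 false among 156. The changed genes were a far smaller share than the 15.8% called in the data, so these rates need not hold for the members. No 2 libraries were alike within sampling noise. Each p-value sets a group difference against the spread between these mice, which is estimated partly from other genes. A member and another gene of the lists are not reported here, though they are in the counts. The members and all gene lists were chosen with earlier results of these data known. Named with values in every library were members that passed and the urea cycle members. Other pathway genes were named when called with 1 of the 5 largest changes in either direction, and those named beyond this, as well as the non-overlapping members and *Got1* and *Aass*, were chosen after their values were seen. Exon overlaps came from GENCODE vM21.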

Additional observations from a re-analysis of the deposited data

Results flagged for a closer look

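A control library that stood apart from the others of its group was looked for in each of the 46 members, and 2 were found, where chance gives about 1 in 20 groups. *Kmo* was at 217 CPM in flox/flox replicate 1, against 286 to 293 CPM in the other 3 controls. *Mccc1* was at 42.8 CPM in flox/flox replicate 3, against 36.9 to 37.9 CPM in the other 3, so its highest control lies on the side away from the livers labelled hep-/-.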

How the results depend on the processing

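With 11 members called, 10 lower and 1 higher, the counts over alternatives other than single omissions ran from 9 to 15. DESeq2 called 2 members higher, and the unfiltered log2(FPKM + 1) fit called 0 higher. With each library left out in turn, 6 to 14 members were called, 6 to 13 lower and 0 to 2 higher, the lowest counts being without flox/flox replicate 2 and without replicate 2 labelled hep-/-. Of the other pathway genes 22 were called, 28 with DESeq2, 31 and 33 in the filtered fits of log2(FPKM + 1) and log2(FPKM + 0.1), and 10 to 25 over single omissions, with 10 without flox/flox replicate 2, 14 without flox/flox replicate 3, 12 without replicate 1 labelled hep-/- and 14 without replicate 2 labelled hep-/-. *Oat*, *Pccb*, *Glul*, *Pcca*, *Got2* and *Aldh4a1* were called in all 18 alternatives. *Hlcs* was called in 3 of 11 alternatives other than single omissions and in 1 of 7 omissions. *Cps1*, *Got1* and *Tdo2* passed with DESeq2 (adjusted p = 0.0375, 0.0448 and 0.00585), as did *Ftcd* (0.0441), a test with 18 false among 156 calls in the simulation. These 3 and *Ass1* passed in the filtered FPKM fits and without replicate 3 labelled hep-/-. *B4galt1* ran from −0.96 to −0.30 over single omissions and passed at −0.67 and −0.73 in the filtered fits of log2(FPKM + 1) and log2(FPKM + 0.1) and at −0.96 without replicate 3 labelled hep-/-.

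Sign changes were limited to members near 0 or moved by 1 library. *Dbt* was 0.022 with upper-quartile scaling and 0.0031 with at least 10 counts in every library. *Asl* was −0.017 with the loosest filter and −0.11 in the FPKM fits, in which *Fah* was −0.050 or −0.051. Over single omissions *Asl* ran from −0.23 to 0.22, *Dbt* from −0.15 to 0.20, *Otc* from −0.25 to 0.16, *Ivd* from −0.20 to 0.034, *Prodh* from −0.49 to 0.0028, *Kmo* from −0.29 to 0.13, *Tat* from −0.11 to 0.54, *Fah* from −0.056 to 0.16, *Aass* from −0.19 to 0.63 and *Gldc* from −0.21 to 0.55. The cause was not tested.

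Replicate numbers are shared by 3 pairs of mice, but the deviations of equal numbers correlated at −0.42, −0.10 and 0.09 (Pearson's r across genes, which are not independent), so the numbers were not taken as pairing. With the replicate block 9 members and 14 other pathway genes were called, 7 of the 11 members remained, *Bckdhb*, *Hgd*, *Mccc2* and *Hlcs* were lost (adjusted p = 0.0828, 0.0785, 0.0663 and 0.158), *Tdo2* and *Sdsl* were added, *Dbt* was 0.040 and *Otc* 0.13. The simulation recovered 38.1% of changes of 1 on the log2 scale, so members that missed the call are not shown to be equal between groups.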
